A study of Pinellia ternata with 12 samples.

Results

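miR159 and miR319 are a pair of related plant miRNA families, and the names of both were followed here through heat stress in leaves of Pinellia ternata, a medicinal herb of the arum family. A member is any listed miRNA whose name, after the species prefix, is miR159 or miR319 followed by a letter, a hyphen or nothing. The rule found 64 of the 1597 miRNAs of the table, 40 of them miR159 names and 24 miR319 names, and all 64 had values. 3 heat libraries (G; seedlings held at 40 ℃ for 24 h, labelled day 1) were compared with 3 control libraries (C; 0 h of heat, labelled day 0). All seedlings were wild-type plants raised from tubers in an incubator at 25 ℃, with 16 h of light at 4000 lx and 8 h of darkness. The study made 6 small RNA libraries and 6 mRNA libraries of leaf RNA and calls the 3 of a group biological replicates. How many plants went into each is not given in the sources used here.

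In Arabidopsis, miR159 pairs with mRNAs of GAMYB-like MYB transcription factors and keeps them low in vegetative tissue, and miR319 pairs with mRNAs of TCP transcription factors that restrain cell division at the margin of the growing leaf. The mature strand of both families comes from the 3p arm of a long hairpin that is cut from the loop end in several steps, and strands of the 5p arm are normally degraded faster. P. ternata has no miRNA list of its own here: reads were matched to mature miRNAs of other plants, so a name such as ath-miR159a (Arabidopsis) or osa-miR159f (rice) stands for a sequence form found in P. ternata leaf and not for a gene of that other plant.

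The 5 forms that carried most miR159 reads are shown first, as listed by the study, because they differ only at their ends. aqc-miR159 is added for its change inside the seed. Capitals mark the seed (bases 2 to 8), and positions count from 1 at the 5′ end.
ath-miR159a: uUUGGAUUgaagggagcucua
osa-miR159f: cUUGGAUUgaagggagcucua
lus-miR159b: uUUGGAUUgaagggagcucuc
ath-miR159b-3p: uUUGGAUUgaagggagcucuu
mdm-miR159a: cUUGGAUUgaagggagcucc
aqc-miR159: uUUGGACUgaagggagcucua
Against ath-miR159a, osa-miR159f (rice) carries U1C, lus-miR159b (flax) A21C and ath-miR159b-3p A21U, while mdm-miR159a (apple) is a form of 20 bases. aqc-miR159 (columbine) carries U7C, the change that gives it the core of miR319. 14 names shared the seed UUGGAUU, all of them miR159 names, and they held 546807 reads, 91.9% of the reads of both families.

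The miR319 forms on which the results turn are next, chosen because they are the abundant 3p-type forms or passed the test.
ath-miR319a: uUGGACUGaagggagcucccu
vvi-miR319g: uUGGACUGaagggagcuccca
ppt-miR319c: cUUGGACUgaagggagcuccc
gma-miR319g: uUGGACUGaagggagcuccuuc
gma-miR319q: uGGACUGAagggagcuccuuc
bdi-miR319b-3p: uUGGACUGaagggugcucccu
gma-miR319q (soybean) equals gma-miR319g from its second base on, so 1 base at the 5′ end separates these forms and moves the seed. Against ath-miR319a, vvi-miR319g (grapevine) carries U21A and bdi-miR319b-3p (Brachypodium) A14U. 8 names shared the seed UGGACUG, with 13098 reads, and the shifted seed UUGGACU joined 3 miR319 names to aqc-miR159, with 6425 reads.

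3 names of the opposite arm complete the set, as the most abundant or the called 5p names.
gma-miR159e-5p: gAGCUCCUugaaguccaauu
mtr-miR319b-5p: gAGCUUUCuuuaguccacuca
mtr-miR319a-5p: aGAGCUUCcuucaguccacuc
By sequence, 14 miR159 names held the miR159 core (bases 4 to 18 of ath-miR159a) and 8 miR319 names held the miR319 core (bases 3 to 17 of ath-miR319a). 12 miR159 and 10 miR319 names matched neither core within 3 of 15 bases. Names that differ by 1 base or by their ends can share reads, depending on the mismatches allowed in matching, which the sources used here do not give, so single levels of such names are uncertain.

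RPM here is the share of a library's reads on listed miRNAs, scaled to the same total in each library, and every value was a whole multiple of 1 read. The recovered depth was 479324 to 1475482 reads in the heat libraries and 871814 to 2039055 in the control libraries, so 1 read stood for 0.490 RPM (control replicate 2) to 2.09 RPM (heat replicate 2). miRNAs were tested with limma on log2(RPM + 1), where changes of low names come out too small. The screen of the study was used for calls: p below 0.05 without adjustment, and a log2 fold change beyond 1 either way. Adjusted p-values (Benjamini-Hochberg over all miRNAs) are printed beside the calls. Over all 1597 miRNAs, 34 were called higher and 114 lower, or 57 and 76 after rescaling by the median ratio. The median log2 fold change of all miRNAs was −0.37, or −0.22 after that rescaling. The 11 unigenes whose annotation by the study holds the word polyprotein are called potyvirus unigenes here, and they were picked by that word alone. They summed to 606, 4409 and 3420 TPM in heat mRNA libraries 1 to 3, against 0.0611, 0.0199 and 0 TPM in controls. The annotations at hand cover only unigenes that rose under heat, so the direction of this contrast was set by the choice. Heat, RNA of the potyvirus unigenes and the labelled day cannot be told apart in this design.

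Both families were present in every library, miR159 far above miR319, and neither sum separated heat from control leaves. The miR159 names summed to 39744, 74981 and 105611 RPM in heat replicates 1 to 3, against 75729, 87446 and 86381 RPM in control replicates 1 to 3. Heat libraries thus spanned 3.97% to 10.6% of all listed reads, on both sides of the control range of 7.57% to 8.74%. The miR319 names summed to 3666, 7327 and 7898 RPM under heat, against 2393, 6740 and 3837 RPM in controls. These groups overlapped as well, with means of 6297 ± 2296 RPM under heat and 4324 ± 2214 RPM in controls (SD, n = 3 each). Set against miR159 in the same library, miR319 came to 9.23%, 9.77% and 7.48% under heat, against 3.16%, 7.71% and 4.44% in controls, a ratio that no rescaling of the libraries can move. Control replicate 2 lay above heat replicate 3, so the groups overlapped by 1 library, and no test was run on the sums.

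**Figure D1:**
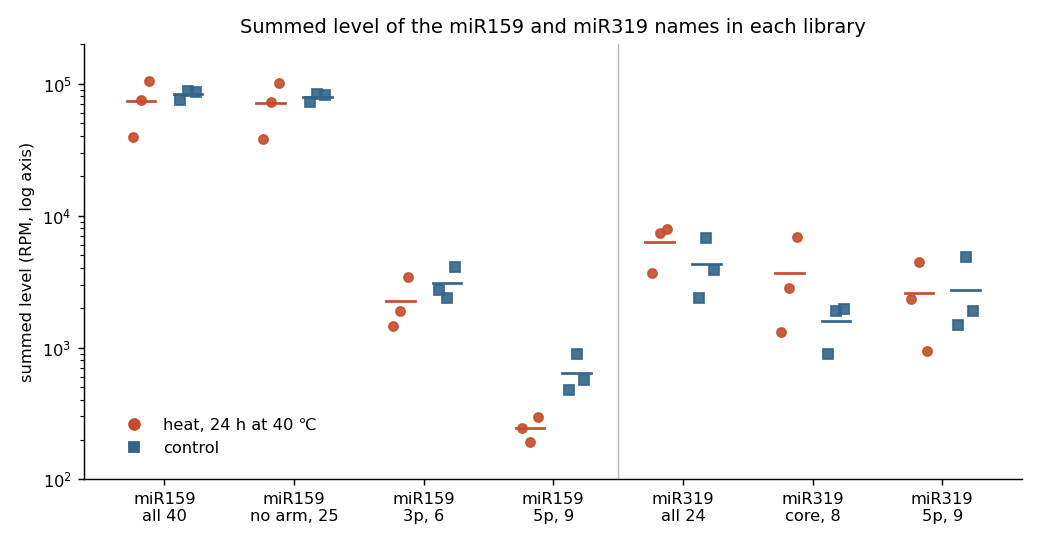
Summed level in RPM (log axis) of the miR159 names (left of the grey line) and miR319 names (right), by arm of the name and for the 8 core-holding miR319 names, with the number of names under each label. Points are libraries, heat left of control, and bars are group means. Of the miR159 sums, the 5p sum has all heat libraries (192 to 297 RPM) below all control libraries (476 to 887 RPM).

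Among single names, none of the 40 miR159 names was called higher by limma, nor by edgeR or DESeq2 on the recovered reads, and 1 was called lower (3 by edgeR and 1 by DESeq2). Over all miRNAs limma called 2.13% higher and 7.14% lower, edgeR 3.19% and 9.20%, and DESeq2 3.76% and 5.76%. Beside gma-miR159e-5p, edgeR called hbr-miR159b and gma-miR159d lower (chosen after their values were seen). Their control reads were 12, 536 and 5 and 0, 176 and 0, so each rested on control replicate 2. DESeq2 gave no p-value for either name or for ath-miR319a, which edgeR called higher. Of the 24 miR319 names, 4 were called higher and none lower, with 6 higher by edgeR, 5 higher by DESeq2 and none lower by either. None of the 64 had an adjusted p under 0.05 with limma (lowest 0.341), although 5 had an unadjusted p under 0.05, and over all miRNAs 0.0626% passed that adjustment. At that threshold edgeR gave none of the 64, beside 0.00% of all miRNAs, and DESeq2 gave 1 of the 32 to which it assigned an adjusted p, gma-miR319g at 0.0353, beside 2.83% of the 847 such miRNAs in the table. The median log2 fold change was −0.30 over the miR159 names and 0.14 over the miR319 names, beside −0.37 over all miRNAs. The miR319 count was 8 without heat replicate 1, and 2 without heat replicate 2, heat replicate 3 or control replicate 3.

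**Figure D2:**
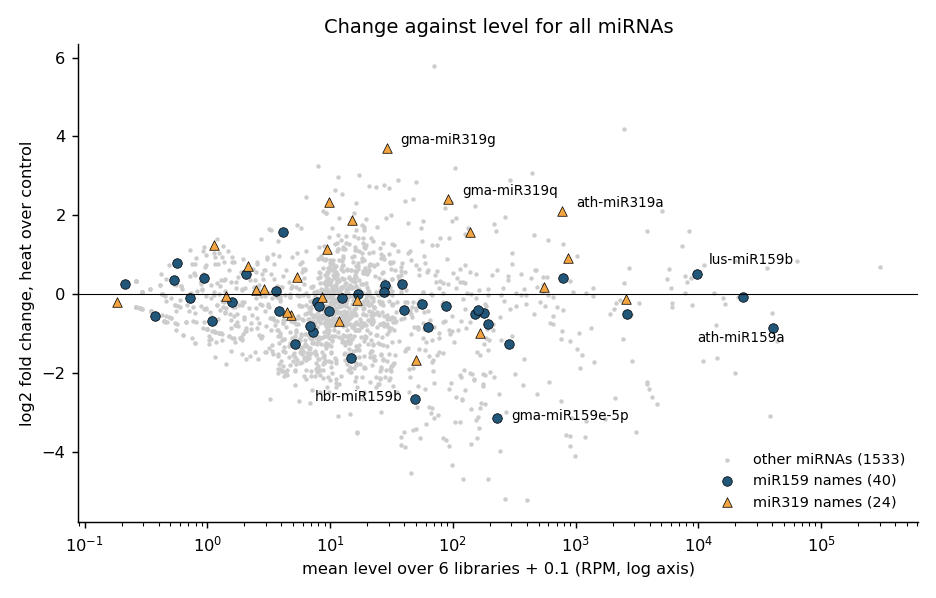
Log2 fold change (heat over control, from log2(RPM + 1)) against mean level in RPM (log axis) for all 1597 miRNAs, in grey, with the 40 miR159 names as circles and the 24 miR319 names as triangles. The 5 most abundant miR159 names lie between −0.85 and 0.51, gma-miR159e-5p lies at −3.14, and gma-miR319g at 3.71 is the highest of the 64.

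Turning to the 3p-type miR159 forms, ath-miR159a, the form with the largest sum of reads here, had 20151, 17241 and 56609 RPM under heat, against 42550, 58900 and 46314 RPM in controls. Heat replicates 1 and 2 lay below every control library and heat replicate 3 near the top of the control range, so the groups overlapped (log2 fold change −0.85, SE 0.69, limma adjusted p = 0.724). osa-miR159f, the form that starts with C, had 14133, 17051 and 39643 RPM under heat, against 24949, 17483 and 25846 RPM in controls. Its difference was within the spread between libraries too (log2 fold change −0.08, SE 0.64, limma adjusted p = 0.978). As a share of ath-miR159a, osa-miR159f reached 70.1%, 98.9% and 70.0% under heat, against 58.6%, 29.7% and 55.8% in controls. This ratio within a library did not overlap between the groups, a description of a pair picked after its values were seen and not tested, and an exact permutation test over 3 against 3 libraries could not go below a p of 0.10.

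1 heat library stood apart in its miR159 forms. lus-miR159b, which ends with C, had 3088, 34914 and 3753 RPM under heat, against 3198, 5551 and 7888 RPM in controls. Heat replicate 2, the shallowest library, was thus 4.43 times the next highest library, and there the form made up 46.6% of miR159 reads, with ath-miR159a at 23.0%. In the other 5 libraries lus-miR159b held 3.55% to 9.13% of miR159 reads and ath-miR159a 50.7% to 67.4%. mdm-miR159a, the form of 20 bases, showed the same library on its own, with 213, 2625 and 455 RPM under heat, against 431, 472 and 543 RPM in controls. Without heat replicate 2 the log2 fold changes of these forms turned negative (lus-miR159b −0.61 in place of 0.51, mdm-miR159a −0.62 in place of 0.40), none of them called. Among all 64 names, 8 had heat replicate 2 as their highest library at over 2 times the next. Of these, ptc-miR159c and gma-miR159c had 1 read there and zma-miR319b-5p 3 reads (chosen after their values were seen). In that library 1 read stood for 2.09 RPM, while lus-miR159b and mdm-miR159a had 16735 and 1258 reads there. Whether depth bears on these excesses was not tested. The share of all miRNAs with this order is not given here.

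ath-miR159b-3p, which ends with U, kept closer to the main form, with 1439, 1819 and 3405 RPM under heat, against 2679, 2332 and 4034 RPM in controls (log2 fold change −0.50, SE 0.54, limma adjusted p = 0.779). Its level was 6.01% to 10.6% of ath-miR159a under heat and 3.96% to 8.71% in controls. Forms with a change inside the molecule stayed at a small share of the main form. aqc-miR159, with the miR319 core, came to 0.41% to 0.68% of ath-miR159a under heat and 0.36% to 0.48% in controls. pde-miR159 (pine, A6U) came to 0.36% to 0.90% under heat and 0.31% to 0.41% in controls. Both were chosen after their values were seen, and whether such low shares are forms of their own or reads of the main form with a wrong base was not tested.

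**Figure D3:**
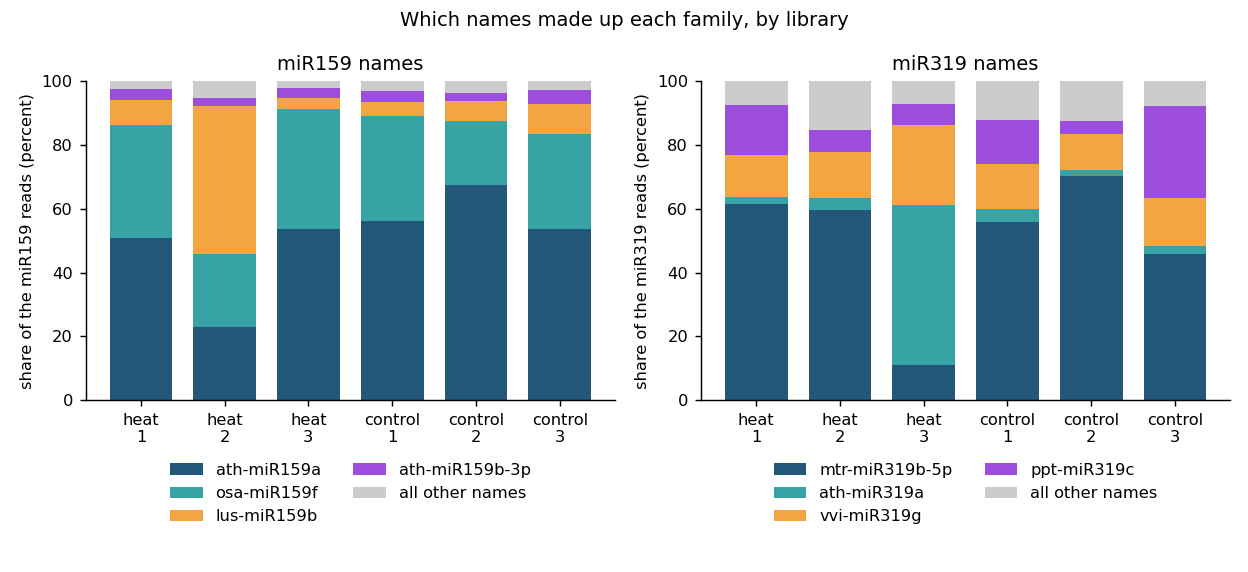
Share of each family's reads (percent) taken by its 4 most abundant names in each library, heat left of control. In heat replicate 2 lus-miR159b takes 46.6% of miR159, and in heat replicate 3 ath-miR319a takes 50.2% of miR319.

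1 of the 9 miR159 names of the 5p arm was called lower under heat, and it set the sum of that arm. Together the 9 names came to 245, 192 and 297 RPM under heat, against 476, 887 and 565 RPM in controls, and all heat libraries lay below all control libraries. Without gma-miR159e-5p the other 8 names summed to 140, 167 and 270 RPM under heat, against 236, 253 and 221 RPM in controls, and the groups overlapped. The median log2 fold change of the 9 names was −0.30, beside −0.37 over all miRNAs. gma-miR159e-5p is a soybean name for the strand opposite the mature one and the only called miR159 name. It had 105, 25.0 and 27.1 RPM under heat (109, 12 and 40 reads), against 240.3, 634 and 344 RPM in controls (222, 1293 and 300 reads). Its highest heat library stayed below its lowest control library (log2 fold change −3.14, SE 0.70, limma adjusted p = 0.341), and it was called under every alternative tried. A 5p name of another seed, zma-miR159c-5p (maize, chosen after its values were seen), showed no such gap. It had 71.3, 111 and 213 RPM under heat, against 173, 193 and 145 RPM in controls. In all, 4 miR159 names had every heat library below every control library, beside 9.89% of all miRNAs. Of these, hbr-miR159b (rubber tree), whose sequence matches neither core, rested on 1 library, with 13 reads in the 3 heat libraries together, against 12, 536 and 5 reads in controls. Another, gma-miR159a-5p, had 1, 0 and 1 reads under heat, against 2, 2 and 1 reads in controls. It equals gma-miR159e-5p with 1 more base at the 3′ end, so these names are not independent signals. hbr-miR159b and gma-miR159a-5p were chosen after their values were seen.

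Where the table held names for both arms of 1 miR159 precursor of another plant, neither name passed the test. Whether such paired names come from 1 hairpin of P. ternata is not known here. ath-miR159b-5p had 0.964, 8.35 and 10.8 RPM under heat (1, 4 and 16 reads), against 3.25, 0.981 and 0 RPM in controls (3, 2 and 0 reads). These are a handful of reads beside its 3p partner, and the groups overlapped (log2 fold change 1.56, SE 0.93, limma adjusted p = 0.615). bdi-miR159a-5p had 3.86 to 12.5 RPM under heat and 7.58 to 8.34 RPM in controls, and bdi-miR159a-3p 9.64 to 66.8 RPM under heat and 14.1 to 37.9 RPM in controls. Of the zma-miR159e names the 5p name was the higher, with 25.0 to 57.8 RPM under heat and 8.83 to 65.4 RPM in controls. The zma-miR159e-3p name had at most 2 reads in any library.

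3 of the 4 called miR319 names were 3p-type forms, and none of these was abundant. gma-miR319g had 27.0, 73.0 and 58.3 RPM under heat (28, 35 and 86 reads), against 3.25, 11.8 and 0 RPM in controls (3, 24 and 0 reads). Every heat library exceeded every control library (log2 fold change 3.71, SE 0.99, limma adjusted p = 0.341), and the call held under every alternative tried. gma-miR319q, the same form without its first base, had 55.9, 275 and 125 RPM under heat, against 14.1, 68.7 and 11.5 RPM in controls. It was called higher although heat replicate 1 lay below control replicate 2 (log2 fold change 2.42, SE 0.86, limma adjusted p = 0.482). These are not independent signals, since the sequences overlap. Added together they gave 82.9, 348 and 184 RPM under heat, against 17.3, 80.4 and 11.5 RPM in controls, and heat replicate 1 lay barely above control replicate 2.

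bdi-miR319b-3p, 1 base from ath-miR319a, was called higher on few reads, with 5.78, 8.35 and 37.3 RPM under heat (6, 4 and 55 reads), against 4.33, 2.45 and 0 RPM in controls (4, 5 and 0 reads). The groups did not overlap, but heat replicate 3 held most of the level (log2 fold change 2.35, SE 0.98, limma adjusted p = 0.525). The call ended without heat replicate 2 (log2 fold change 2.61), heat replicate 3 (1.59), control replicate 2 (2.54) or control replicate 3 (1.65). Its 5p partner bdi-miR319b-5p had 0, 8.35 and 4.74 RPM under heat, against 2.17, 8.34 and 4.59 RPM in controls, and did not differ beyond this spread (limma adjusted p = 0.860). gma-miR319q lost its call without heat replicate 2 (log2 fold change 1.85), heat replicate 3 (2.41), control replicate 1 (2.09) or control replicate 3 (1.96).

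ath-miR319a itself, the form most studied in Arabidopsis leaves, rested on 1 library. It had 87.7, 267 and 3961 RPM under heat, against 101, 120.2 and 96.4 RPM in controls. Heat replicate 3 was 14.8 times the next library, while heat replicate 1 lay below the controls (log2 fold change 2.10, SE 1.21, limma adjusted p = 0.605), and edgeR called it higher (adjusted p = 0.396). Without heat replicate 1 it was called at a log2 fold change of 3.28, and without heat replicate 3 its log2 fold change was 0.54. vvi-miR319g, which differs from it at the last base, had 483, 1062 and 1970 RPM under heat, against 332, 760 and 582 RPM in controls (log2 fold change 0.93, SE 0.64, limma adjusted p = 0.685). Its lowest heat library lay inside the control range, and it was called only without heat replicate 1, at a log2 fold change of 1.45. ppt-miR319c (moss), with the seed shifted by 1 base, had 574, 490.3 and 516 RPM under heat, against 336, 276 and 1105 RPM in controls, so that heat libraries lay within the control range. gma-miR319p, another shifted form (chosen after its values were seen), had 24.1, 505 and 163 RPM under heat, against 31.4, 56.9 and 40.1 RPM in controls. Heat replicate 1 lay below the controls (log2 fold change 1.59, SE 1.01, limma adjusted p = 0.659), and gma-miR319p was not called by limma. edgeR and DESeq2 both called it higher, at log2 fold changes of 2.35 and 2.45 (edgeR adjusted p = 0.396, DESeq2 adjusted p = 0.163).

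**Figure D4:**
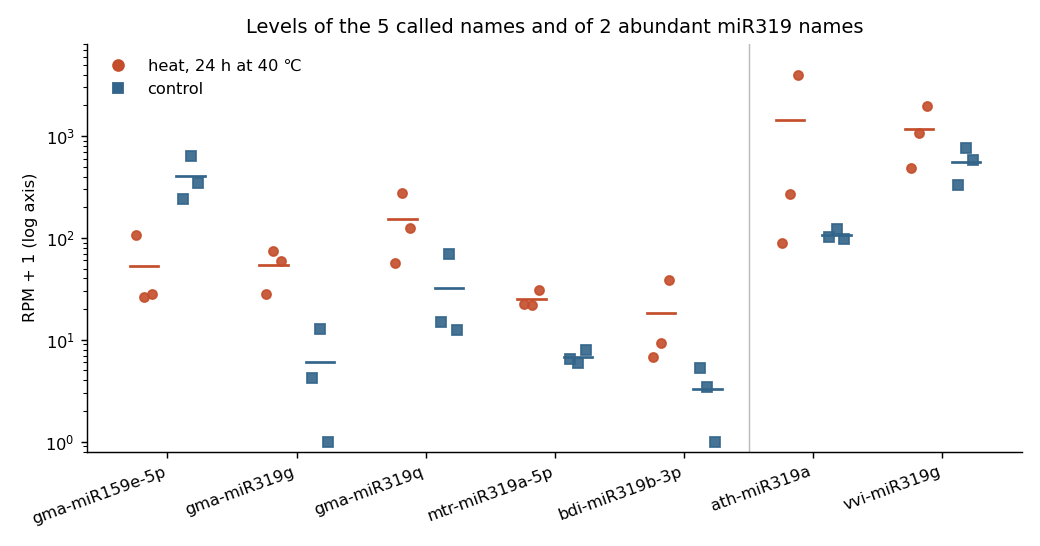
RPM + 1 (log axis) in each library for the 5 called names (left of the grey line) and for ath-miR319a and vvi-miR319g (right), heat left of control, with bars at group means. gma-miR159e-5p is lower in all heat libraries, gma-miR319g and mtr-miR319a-5p are higher in all of them, and ath-miR319a is high in 1 heat library only.

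On the 5p side, the most abundant miR319 name was not a mature-strand form at all. mtr-miR319b-5p (Medicago) had 2252, 4375 and 879 RPM under heat, against 1335, 4741 and 1757 RPM in controls. It exceeded the 8 core-holding miR319 names together in 4 of 6 libraries, and came to 12.8% of them in heat replicate 3, the library with the high ath-miR319a. Between the groups it did not differ beyond its spread (log2 fold change −0.12, SE 0.75, limma adjusted p = 0.972), and the sign turned with the scaling of the libraries. mtr-miR319a-5p, a Medicago name of low level, had 21.2, 20.9 and 29.8 RPM under heat (22, 10 and 44 reads), against 5.41, 4.90 and 6.88 RPM in controls (5, 10 and 6 reads). The groups did not overlap (log2 fold change 1.88, SE 0.62, limma adjusted p = 0.455), and the call ended only without heat replicate 3 (log2 fold change 1.72). All 4 miR319 names with every heat library above every control library were of low level (4.51% of all miRNAs had such an order). 1 of them, gma-miR319f (chosen after its values were seen), was not called. It had 3, 1 and 1 reads under heat, against 0, 1 and 0 reads in controls, too few to show a difference.

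In all, 39 miR159 names and 20 miR319 names were not called. 7 miR159 names and 2 miR319 names had under 10 reads in all libraries together, too few to show a difference at this depth. vun-miR319b (cowpea), chosen after its values were seen, is an example of a form high in 1 control library, with 37.6, 152 and 65.7 RPM under heat, against 58.5, 593 and 84.9 RPM in controls.

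Predicted targets were taken from the study's psRNATarget list, of which 1998 entries were at hand, so the targets named here are not all of them. These entries paired 27 unigenes with 5 miR319 names and none with a miR159 name. The study predicted targets only for miRNAs it found differentially expressed in these same libraries. Which names appear therefore reflects that choice, and their absence from the list says nothing about targets of other names. 11 of the 27 had a mean of at least 1 TPM and were tested with limma on log2(TPM + 1), over 68978 unigenes, with a call where the adjusted p lay below 0.05 and the log2 fold change beyond 1 either way. 3 of the 11 were called, 1 higher and 2 lower, beside 10.1% of all unigenes called in either direction. After rescaling by the median ratio the counts over all unigenes were 2796 higher and 4148 lower, in place of 4142 and 2793, and the median log2 fold change was −0.02 in place of 0.17. The other 16 targets had means of 0.113 to 0.856 TPM and were not tested.

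All 3 called targets were paired with mtr-miR319a-5p, the 5p name called higher without adjustment, and they did not move one way. Other tested targets of this name were not called: TRINITY_DN74678_c4_g1, and TRINITY_DN57204_c0_g1 and TRINITY_DN59170_c0_g3 (the last ones chosen after their values were seen). TRINITY_DN53752_c0_g5, with the term antiporter activity, had 0.489, 0.170 and 0.461 TPM under heat, against 3.65, 6.18 and 11.3 TPM in controls (log2 fold change −2.45, SE 0.37, limma adjusted p = 0.00379). The study lists TRINITY_DN59178_c0_g1 with mtr-miR319a-5p as a pair of opposite change, the miRNA up and the unigene down. This unigene is annotated as 1-deoxy-D-xylulose-5-phosphate reductoisomerase, an enzyme of plastid isoprenoid synthesis. It had 4.31, 3.34 and 5.12 TPM under heat, against 9.63, 12.6 and 7.75 TPM in controls. Its groups did not overlap (log2 fold change −1.05, SE 0.27, limma adjusted p = 0.0367), but it stood near the fold threshold, and the call held without heat replicate 1 alone among the 6 fits that leave out a library, with log2 fold changes of −1.21 to −0.89. TRINITY_DN74888_c7_g3, with the term 5'-3' exoribonuclease activity, went the other way, with 49.5, 32.2 and 29.2 TPM under heat, against 11.6, 16.3 and 14.0 TPM in controls (log2 fold change 1.32, SE 0.27, limma adjusted p = 0.0151). That call ended without control replicate 1 (log2 fold change 1.20) or control replicate 3 (1.33).

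Of the 11 tested targets 4 had an adjusted p below 0.05, and the one not called, TRINITY_DN69444_c1_g2, is paired with the 3p-type form gma-miR319p. It had 13.0, 14.7 and 16.0 TPM under heat, against 6.97, 6.35 and 8.41 TPM in controls. The groups did not overlap, but the change missed the fold threshold (log2 fold change 0.92, SE 0.24, limma adjusted p = 0.0364). TRINITY_DN66040_c0_g1, another target of gma-miR319p, with transcription factor terms, had 9.38, 16.6 and 11.0 TPM under heat, against 7.02, 5.71 and 5.67 TPM in controls (log2 fold change 0.87, SE 0.27, limma adjusted p = 0.0685). Both were chosen after their values were seen. No target of a 3p-type form was called. TRINITY_DN75486_c1_g5, with the terms leaf development and leaf morphogenesis, is paired with ath-miR319a, bdi-miR319b-3p and gma-miR319g. It had 2.30, 1.56 and 2.63 TPM under heat, against 2.86, 2.83 and 1.78 TPM in controls (log2 fold change −0.14, SE 0.29, limma adjusted p = 0.788). TRINITY_DN47535_c0_g1, paired with the same names and carrying leaf morphogenesis and transcription factor terms, had 0.234, 1.67 and 0.429 TPM under heat, against 0.855, 0.736 and 1.21 TPM in controls, below the filter. TRINITY_DN74678_c4_g1, the only target paired with both arms, had 1.27, 2.17 and 1.85 TPM under heat, against 1.67, 0.545 and 0.560 TPM in controls (log2 fold change 0.56, SE 0.33, limma adjusted p = 0.296). Levels of 1 to 3 TPM cannot show a small difference with 3 libraries a group. No list of MYB or TCP unigenes could be made from the names at hand. The 1 unigene that the study places in the Myb superfamily, TRINITY_DN70714_c2_g1, is paired by it with another miRNA, and had 5.89, 3.99 and 5.59 TPM under heat, against 14.8, 14.1 and 26.0 TPM in controls (log2 fold change −1.61, SE 0.29, limma adjusted p = 0.00942).

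**Figure D5:**
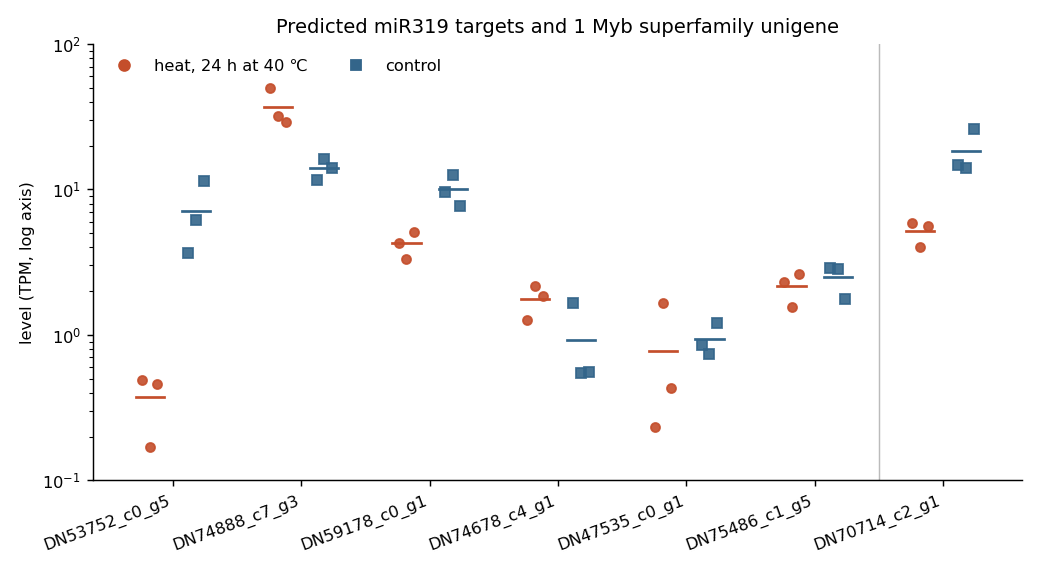
TPM (log axis) in each mRNA library for 6 predicted miR319 targets (left of the grey line) and for the Myb superfamily unigene (right), heat left of control, with bars at group means; each label is the unigene's number without the prefix TRINITY. DN53752_c0_g5, DN59178_c0_g1 and DN70714_c2_g1 lie lower under heat, DN74888_c7_g3 lies higher, and the 3 in between overlap.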

How the data were processed

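RNA was sequenced from P. ternata leaves on a HiSeq2500 as strand-specific mRNA libraries and single-end small RNA libraries. The deposited TPM values were estimated by the authors with Salmon on unigenes assembled by Trinity, without a genome, so depth per unigene is unknown. The deposited RPM values came from reads that the authors trimmed with cutadapt and trimmomatic, kept at 17 to 35 bases, cleared of Rfam matches and matched to miRNAs of other plants, and the mismatches allowed there are not given in the sources used here. The 9582 RPM values were whole multiples of 1 read within 0.01 reads, and the recovered reads were 3.19% to 7.97% of the clean reads under heat and 5.26% to 6.56% in controls. No column was left out.

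Groups came from the C and G of the titles, since a treatment label calls all 12 samples heat-treated. Moderated tests used limma 3.58.1 with a mean-variance trend, under R 4.3.3, on log2(RPM + 1) for all 1597 miRNAs and on log2(TPM + 1) for unigenes averaging 1 TPM or more. edgeR 4.0.16 (quasi-likelihood, TMM) and DESeq2 1.42.0 were run on the recovered reads. Sums and ratios were not tested. Alternatives were pseudocounts, filters, scalings, those count models, leaving out libraries singly, and the replicate number as a block. The fits were tested on simulated data. Shares of reads carry 95% Wilson intervals of at most 2.07 percentage points either way, for counting error only, and 3 reads, the limit that a count of 0 allows, are 1.47 to 6.26 RPM. Families, arms, cores, targets and lists were chosen with earlier results of these data known. Named were all called names, those with a mean of at least 500 RPM, both arms of 1 precursor, targets of both arms or with the term leaf morphogenesis, called targets and 2 unigenes the study names. Other names are said to be chosen after their values were seen.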

Additional observations from a re-analysis of the deposited data

How the results depend on the processing

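Whether replicate numbers pair the libraries is not given in the sources used here. Deviations of same-numbered libraries from their group means correlated at −0.08 to 0.11 (miRNAs) and −0.14 to 0.14 (unigenes). Differently numbered libraries gave −0.17 to 0.20 and −0.16 to 0.25. With 3 libraries a group these values cannot decide the question. With a replicate block, 28 miRNAs were called higher and 97 lower, 3 miR319 names were called higher in place of 4, and 1 predicted target was called lower in place of 2. miRNAs called higher numbered 57 with median ratio scaling and 60 with DESeq2, in place of 34. miR159 names called lower numbered 2 with a pseudocount of 0.1 and 3 with edgeR, in place of 1. Predicted targets called higher numbered 2 with a pseudocount of 0.1 and 0 without a filter, in place of 1 (no filter also left 1 target lower and 1 named unigene called, in place of 2 and 4, with 208217 unigenes in the adjustment). Leaving out each library gave 19 to 44 miRNAs higher and 63 to 171 lower, 0 to 2 miR159 names higher and 1 to 2 lower, 2 to 8 miR319 names higher and 0 to 1 lower, 2 to 8 of the named members called, 0 to 2 targets higher and 1 to 2 lower, and 2 to 4 named unigenes called. Signs turned for uncalled names only. mtr-miR319b-5p and osa-miR159f were at 0.12 and 0.16 with median ratio scaling, 0.045 and 0.086 with TMM, 0.11 and 0.15 with edgeR, and 0.18 and 0.24 with DESeq2. ppt-miR319c was at −0.0061 with edgeR and bdi-miR159a-5p at 0.013 with DESeq2. With each library left out, log2 fold changes ran from −0.46 to 0.88 (bdi-miR159a-3p), −0.61 to 0.13 (bdi-miR159a-5p), −1.19 to 0.42 (bdi-miR319b-5p), −0.61 to 1.14 (lus-miR159b), −0.62 to 1.19 (mdm-miR159a), −0.67 to 0.49 (mtr-miR319b-5p), −0.53 to 0.21 (osa-miR159f), −0.21 to 0.79 (ppt-miR319c), −0.55 to 0.83 (zma-miR159e-5p) and −0.30 to 0.0050 (TRINITY_DN75486_c1_g5). bdi-miR319b-3p lost its call in 8 of its alternatives, among them both other pseudocounts (3.56 and 1.38) and clean-read scaling (2.29), and the cause was not tested. The summed levels and their ratio moved by less than 1 SD in every alternative, at −0.54 to 0.31 (miR159), 0.25 to 1.22 (miR319) and 0.58 to 1.27 (ratio) on the log2 scale.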
